A study of Mus musculus with 16 samples.

Results

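The genes described here encode the NF-κB transcription factor family and proteins that regulate it. They are 10 of the 24421 genes in the count files, found by their symbols. The 5 subunits are Nfkb1, Nfkb2, Rel, Rela and Relb, and the 5 grouped as feedback inhibitors are Nfkbia, Nfkbie, Nfkbiz, Tnfaip3 and Bcl3. Nfkbiz and Bcl3 encode nuclear regulators, so inhibitor is a group name here and not a measured role. All 10 passed the filter on low counts, as did 9642 genes in all.

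NF-κB proteins bind DNA as dimers. In resting cells IκB proteins hold them in the cytoplasm, and signals from Toll-like receptors, TNF receptors or the IL-1 receptor activate IκB kinase, which marks IκB for destruction so that the dimers enter the nucleus. In the canonical pathway the dimer is mostly RelA or c-Rel with p50, whereas the non-canonical pathway processes p100 to p52, which pairs with RelB. Several targets of NF-κB are its own brakes, among them the genes for IκBα and A20, and in macrophages and monocytes this loop shapes how long inflammatory cytokine genes stay on. Messenger RNA, measured here, does not show how much of a subunit was in the nucleus.

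The study sorted CD11b+ cells from MC38-Ova tumours, a mouse colon adenocarcinoma line that carries ovalbumin, grown under the skin of young adult C57BL/6 mice with a Kaede transgene. Kaede is a fluorescent protein that violet light converts from green to red, so cells inside the tumour at conversion were red and cells that entered later were green. Kaede-green (MG24, MG72) and Kaede-red (MR24, MR72) cells were collected 24h or 72h after conversion, in 4 libraries per group and 16 in all, with Control (NA) as the treatment and 1 batch in every label. All groups shared the host strain, the transgene, the tumour line and the sort gate, which took live cells positive for CD45, Kaede and CD11b and negative for TER119 and NK1.1. The colour reports presence at conversion and not the day of entry, the sort takes CD11b+ cells of any kind although the labels also call them macrophages. The study describes its bulk samples as tumours of separate mice, but no source used here says whether a Kaede-green and a Kaede-red library came from the same tumour.

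Libraries held 3216858 to 15423085 counts, of which the ribosomal RNA gene Rn45s took 79.0 to 93.4% in Kaede-green and 55.8 to 84.9% in Kaede-red libraries. Outside Rn45s, 468092 to 912689 counts remained in Kaede-green and 758192 to 5472477 in Kaede-red libraries. Of these, Lars2 and Mir6236 together took 29.2 to 51.3% (median 42.2%) in Kaede-green and 3.05 to 27.8% (median 12.8%) in Kaede-red libraries, a difference in composition that lies beside every comparison of the colours and whose part in them was not tested. The macrophage markers Adgre1 and Csf1r had at least 21 and 53 counts in every library, and Itgam, the gene for the CD11b of the sort gate, at least 151. Cd3e and Epcam had at most 12 and 4. Other markers of their lists went higher, with up to 50 for Cd4 and 7 for Krt8. The B cell marker Cd79b reached 28, the fibroblast marker Col3a1 327 and the endothelial marker Kdr 1059. Levels are given in CPM, counts scaled to a common library size after correction by TMM factors. These factors were 0.318 to 1.06 in Kaede-green and 1.19 to 3.85 in Kaede-red libraries, without overlap, so each colour comparison rests on them. Differences were tested by the quasi-likelihood method of edgeR. The p-values were adjusted over all 9642 genes after Benjamini and Hochberg and called at an adjusted p under 0.05. In bulk samples, fewer cells of a type and less RNA per cell cannot be told apart.

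The promoters of these genes are shown first because feedback by NF-κB on its own genes acts through κB sites near their starts. RefSeq windows of 300 bases (250 before and 50 after the start, GRCm38.p6) matched 7 of the 10 members by symbol, namely Nfkb2, Rel, Rela, Nfkbia, Nfkbie, Tnfaip3 and Bcl3, and not Nfkb1, Relb or Nfkbiz. The 10-base κB consensus, searched on both strands, stood in 6 of these 7 and not in the Rela window. Of the 27025 genes in the same RefSeq table, 9.55% held it, and of all 32851 windows 8.46%. A match of letters is a description and not a measured binding site. The sites are printed on each gene's own strand with 30 bases each and the match in capitals. Where matches overlapped, on 1 strand or both, the capitals cover their union.
Nfkb2, upstream site: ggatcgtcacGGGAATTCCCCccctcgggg
Nfkb2, site next to the start: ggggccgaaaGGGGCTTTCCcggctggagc
Rel: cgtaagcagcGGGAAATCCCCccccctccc
Nfkbia: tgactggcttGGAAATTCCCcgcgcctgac
Nfkbie: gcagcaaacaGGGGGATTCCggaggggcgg
Tnfaip3, upstream site: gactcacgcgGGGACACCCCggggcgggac
Tnfaip3, site next to the start: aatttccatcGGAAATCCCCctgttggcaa
Bcl3: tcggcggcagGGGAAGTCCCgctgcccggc

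The matches began 39 and 11 bases before the Nfkb2 start (chr19:46304688-46304717 and chr19:46304716-46304745, plus strand), 92 before that of Rel (chr11:23771042-23771071, minus strand), 29 before that of Nfkbia (chr12:55492657-55492686, minus strand) and 106 before that of Nfkbie (chr17:45555584-45555613, plus strand). Tnfaip3 had matches 125 and 12 bases before its start (chr10:19015516-19015545 and chr10:19015403-19015432, minus strand), and the Bcl3 match began at base 3 of the transcript (chr7:19822734-19822763, minus strand). Nfkb2 has 2 further starts in the table, with more matches that are not printed. Those of Rel and the upstream one of Nfkb2 each held 2 overlapping matches, 1 base apart. The 250 bases before the starts of Nfkbia and Nfkbie are printed whole, since these are the κB-bearing inhibitors with the highest level and with the called difference.
Nfkbia, chr12:55492648-55492897, minus strand: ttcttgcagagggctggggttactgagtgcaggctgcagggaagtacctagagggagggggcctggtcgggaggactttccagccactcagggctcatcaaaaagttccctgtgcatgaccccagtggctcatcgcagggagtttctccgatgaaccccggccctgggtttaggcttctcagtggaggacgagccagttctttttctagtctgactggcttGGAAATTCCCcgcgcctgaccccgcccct
Nfkbie, chr17:45555450-45555699, plus strand: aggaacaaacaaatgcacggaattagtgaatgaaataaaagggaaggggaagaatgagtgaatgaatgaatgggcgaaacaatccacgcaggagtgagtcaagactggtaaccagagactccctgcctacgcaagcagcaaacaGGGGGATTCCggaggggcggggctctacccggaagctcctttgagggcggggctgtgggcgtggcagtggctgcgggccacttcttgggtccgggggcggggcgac

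In the GENCODE annotation of mm10 the subunit genes lie at chr3:135584655-135691547, minus strand (Nfkb1), chr19:46304320-46312385, plus strand (Nfkb2), chr11:23736847-23770970, minus strand (Rel), chr19:5637483-5648130, plus strand (Rela) and chr7:19606217-19629438, minus strand (Relb). The inhibitor genes lie at chr12:55489410-55492647, minus strand (Nfkbia), chr17:45555703-45563169, plus strand (Nfkbie), chr16:55811375-55838899, minus strand (Nfkbiz), chr10:19000910-19015657, minus strand (Tnfaip3) and chr7:19808462-19822770, minus strand (Bcl3). Nfkb2 overlaps the annotated gene Psd, and whether the counting used strand is not given in the sources used here. The other 9 overlap no gene of the count files.

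Per length of exon, the classical feedback inhibitor stood far above the subunits it binds. Nfkbia, which encodes IκBα, had the highest level in all 16 libraries, at 20.3 ± 4.63 CPM per kb (SD, n = 16) with a range of 13.3 to 28.8. Nfkbie, which encodes the related IκBε, followed at 9.11 ± 2.00 CPM per kb. Nfkbiz, which encodes the nuclear co-regulator IκBζ, stood at 8.38 ± 0.819 CPM per kb. Nfkbie lay above Nfkbiz in 7 of the 16 libraries, so their order was not fixed.

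The 5 subunits, and the other 2 inhibitors, lay lower than these on average. Nfkb2, the gene for p100 and p52, was the highest subunit at 3.56 ± 0.608 CPM per kb (SD, n = 16). Bcl3, a nuclear IκB that binds p50 and p52, stood at 3.02 ± 1.06, Tnfaip3, the gene for the ubiquitin-editing enzyme A20, at 2.70 ± 0.752, and Rela, the gene for p65, at 2.64 ± 0.823 CPM per kb. Bcl3 was above Tnfaip3 in 9 libraries and Tnfaip3 above Rela in 9, so these neighbours did not differ beyond their spread. Rel, the gene for c-Rel, had 1.41 ± 0.272 CPM per kb, Nfkb1, the gene for p105 and p50, 1.20 ± 0.368, and Relb, the gene for the non-canonical subunit RelB, 0.821 ± 0.422. The place of Nfkb1 depended on its length, since its merged exons span 12.1 kb and its longest transcript 4.15 kb. Per kb of longest transcript it stood at 3.49 ± 1.07 CPM per kb and ranked 6 of 10 in place of 9.

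**Figure D1:**
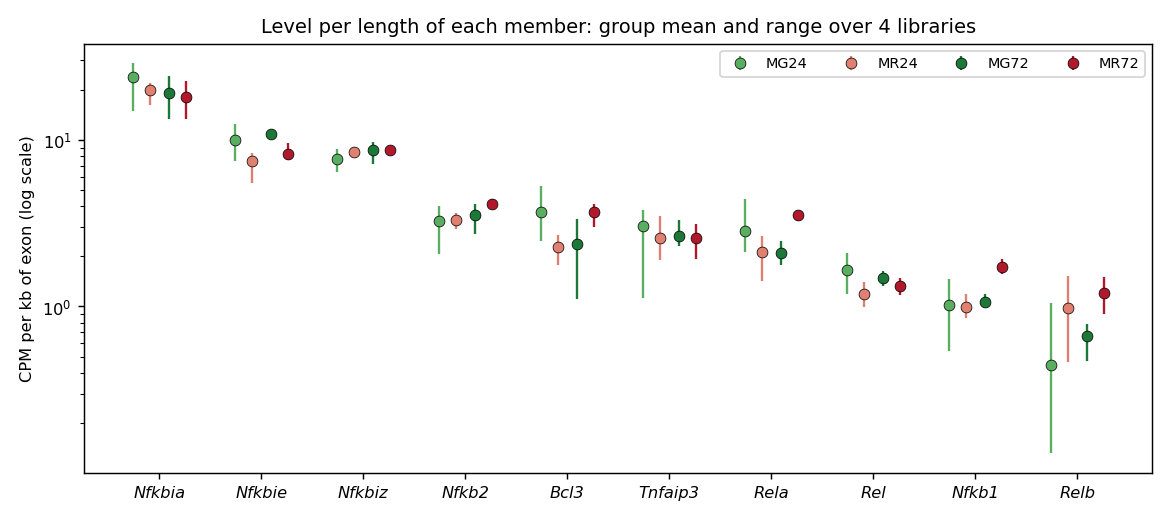
Level of each member per kb of merged exon on a log axis, in CPM per kb, with the group mean (point) and the range over 4 libraries (line). Nfkbia leads in every group, at 13.3 to 28.8 CPM per kb over the libraries, and Relb is last on average, at 0.131 to 1.53.

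At 72h the canonical pair Nfkb1 and Rela was higher in Kaede-red than in Kaede-green cells. Nfkb1 had 20.5, 20.3, 18.9 and 23.3 CPM in the MR72 libraries and 12.1, 12.2, 12.4 and 14.3 CPM in the MG72 libraries. Each MR72 value lay above each MG72 value. The log2 fold change was 0.70 (SE 0.22, 95% confidence interval 0.25 to 1.16, adjusted p = 0.0256), or 1.63-fold.

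Rela had 10.5, 11.4, 9.98 and 11.4 CPM in MR72 and 5.48, 5.80, 6.81 and 7.54 CPM in MG72. These groups did not overlap either, and the log2 fold change was 0.75 (SE 0.26, 95% confidence interval 0.22 to 1.27, adjusted p = 0.0415), or 1.68-fold. These were 2 of 10 members called, against 16.8% of all genes tested in the comparison at 72h. Over the 10 members the median log2 fold change was 0.10, with 0.70 for the subunits and -0.06 for the inhibitors, against 0.03 over all tested genes.

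The other members at 72h did not pass. Relb had 4.23, 5.12, 3.48 and 5.81 CPM in MR72 and 2.56, 3.05, 2.92 and 1.82 in MG72, groups that did not overlap, with a log2 fold change of 0.87 (95% confidence interval 0.04 to 1.70, adjusted p = 0.142). Bcl3 had 10.2, 10.2, 7.41 and 9.01 CPM in MR72 and 8.04, 2.75, 4.38 and 8.32 in MG72, with a log2 fold change of 0.67 (95% confidence interval 0.08 to 1.26, adjusted p = 0.113). The lowest MR72 library for Bcl3 lay below the highest MG72 libraries. Nfkb2, Rel, Nfkbia, Nfkbiz and Tnfaip3 had log2 fold changes of 0.21, -0.13, -0.09, -0.00065 and -0.06. Their adjusted p ran from 0.546 to 0.999, and their intervals ran from -0.59 to 0.63 at the widest.

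The 2 calls at 72h were close to the threshold. Leaving out single libraries ended the Nfkb1 call in 5 of 16 fits and the Rela call in 6, with adjusted p up to 0.0779 (without MR72 replicate 4) and 0.121 (without MG72 replicate 2). With the Rn45s share of each library as a covariate the log2 fold changes were 0.25 for Nfkb1 and 0.23 for Rela, and neither passed (adjusted p = 0.897 and 0.925). The Rela call was also lost with RLE factors (adjusted p = 0.0549) and with thinned Kaede-red libraries (0.0597). A replicate block (0.0537) and a block within time (0.0507) ended it too. Of 12 alternatives other than leaving out a library, the Nfkb1 call held in 11 and the Rela call in 7.

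**Figure D2:**
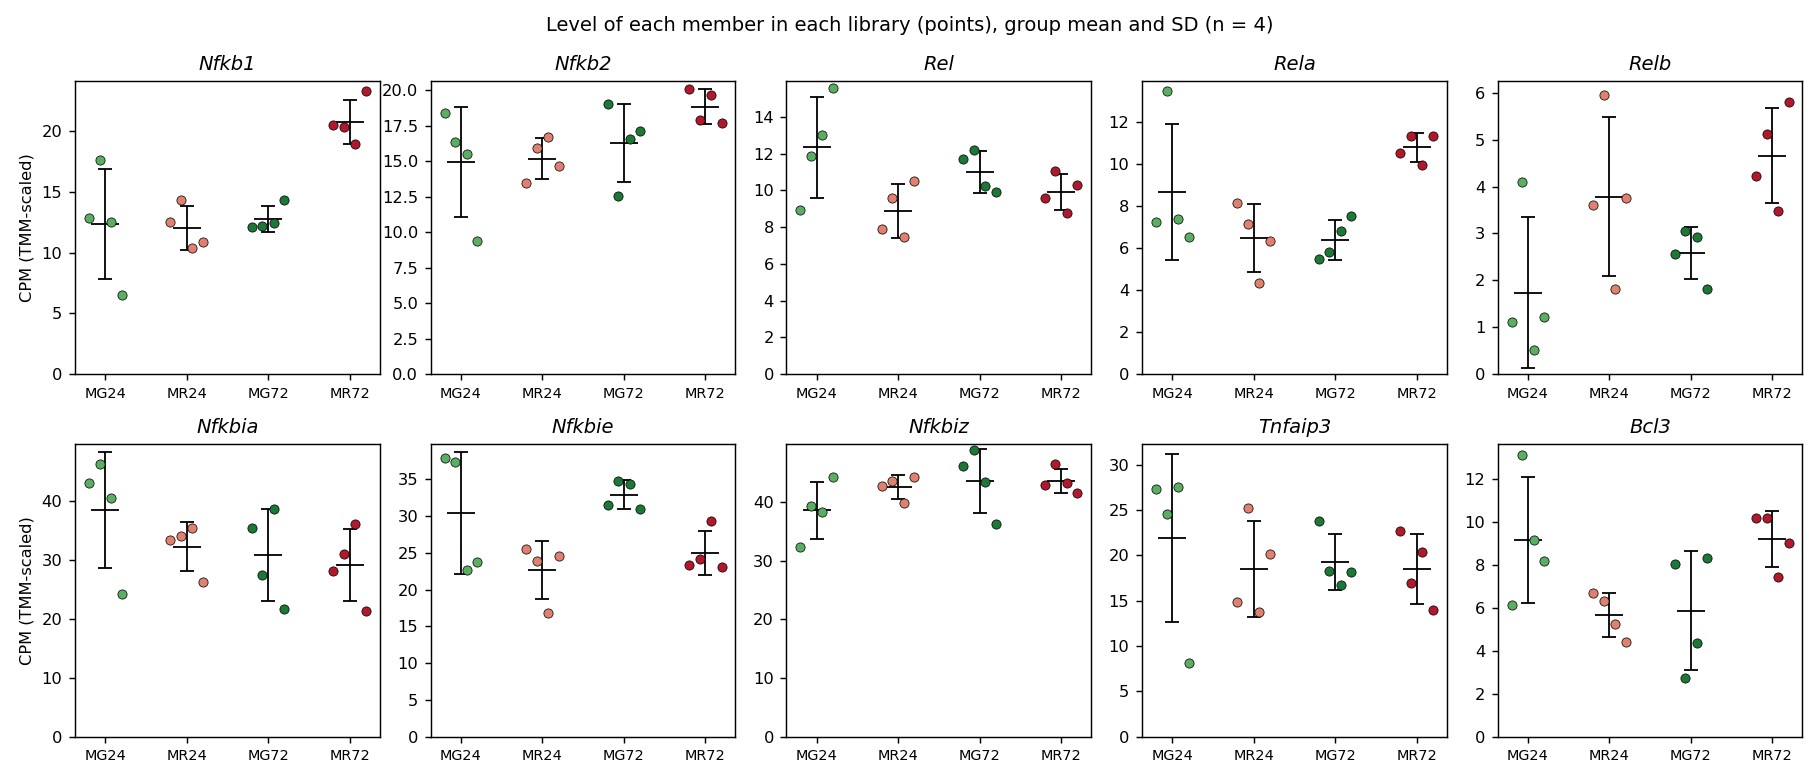
Level of each member in CPM in each of the 16 libraries (points), with group mean and SD (n = 4); every axis starts at 0. Nfkb1 and Rela lie at 18.9 to 23.3 and 9.98 to 11.4 CPM in MR72, above all MG72 libraries, and Nfkbiz lies between 32.3 and 48.9 CPM in all 16.

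At 24h no member was called between the colours. Nfkb1 had 12.8, 17.6, 12.5 and 6.54 CPM in MG24 and 12.5, 14.4, 10.3 and 10.9 CPM in MR24. Rela had 7.25, 13.5, 7.39 and 6.54 CPM in MG24 and 8.17, 7.18, 4.35 and 6.33 CPM in MR24. For both genes the groups overlapped, and the log2 fold changes were -0.04 (95% confidence interval -0.52 to 0.44) and -0.39 (-0.94 to 0.15).

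Bcl3 was the member with the widest swing between the times. It had 6.13, 13.1, 9.17 and 8.18 CPM in MG24 and 6.68, 6.32, 5.26 and 4.39 CPM in MR24, where MG24 replicate 1 lay among the Kaede-red values and the other MG24 libraries lay above all of them. Its log2 fold change at 24h was -0.71 (95% confidence interval -1.32 to -0.10, adjusted p = 0.157). By edgeR 0 of 10 members were called at 24h, against 7.5% of all tested genes, 3 of 10 had an unadjusted p under 0.05, and DESeq2 called 0.

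The difference between the times was itself tested as the change of the red-green difference from 24h to 72h. By edgeR 0 of 10 members passed, against 0.757% of all tested genes, and 3 of 10 had an unadjusted p under 0.05. The change was 1.38 on the log2 scale for Bcl3 (SE 0.42, adjusted p = 0.0887), 1.14 for Rela (SE 0.37, adjusted p = 0.121) and 0.74 for Nfkb1 (SE 0.32, adjusted p = 0.263). DESeq2 called Bcl3 (1.35, adjusted p = 0.0221) and Rela (1.10, adjusted p = 0.0274). By edgeR the Rela difference at 24h was -0.39, and -0.11 without MG24 replicate 2. The DESeq2 fit was not repeated without that library. The other 7 members lay between -0.34 for Relb and 0.35 for Rel.

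Over both times together, Relb was higher and Nfkbie lower in Kaede-red cells. Relb had 1.12, 4.10, 0.510 and 1.23 CPM in MG24 and 3.60, 5.96, 1.81 and 3.75 CPM in MR24, beside the values at 72h given above. One MG24 library, replicate 2, lay among the Kaede-red values and the other MG24 libraries lay below all of them. All 4 MG72 libraries (1.82 to 3.05 CPM) also lay above the lowest Kaede-red value (1.81 CPM, in MR24). The log2 fold change over both times was 1.04 (SE 0.32, 95% confidence interval 0.39 to 1.69, adjusted p = 0.0180), or 2.06-fold.

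The level of Relb was low, with 2 to 12 counts in a Kaede-green library and 10 to 276 in a Kaede-red one. The call was lost without MG24 replicate 3 (0.82, adjusted p = 0.0684) or MR24 replicate 2 (0.91, adjusted p = 0.0502), and when the Kaede-red libraries were thinned to the depth of the Kaede-green ones (0.88, adjusted p = 0.0796). With the Rn45s share as a covariate the log2 fold change was 0.41 (adjusted p = 0.863).

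Nfkbie had 37.9, 37.3, 22.7 and 23.7 CPM in MG24 and 25.5, 23.8, 16.9 and 24.6 CPM in MR24. At 72h it had 31.4, 34.8, 34.3 and 31.0 CPM in MG72 and 23.4, 24.1, 29.3 and 23.1 CPM in MR72, where every Kaede-red value lay below every Kaede-green one. The log2 fold change over both times was -0.40 (SE 0.14, 95% confidence interval -0.69 to -0.11, adjusted p = 0.0449), and it was -0.40 at 24h and -0.40 at 72h, neither of which passed (adjusted p = 0.271 and 0.171).

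Relb and Nfkbie were 2 of 10 members called over both times, against 20.3% of all tested genes. The Nfkbie call was held in only 3 of the 16 fits that left out 1 library, with adjusted p up to 0.106 (without MR24 replicate 3), and was lost with no filter on low counts (-0.28, adjusted p = 0.341). With scaling by counts outside Rn45s only, which moves the median of all genes by 0.77, Nfkbie was instead called higher in Kaede-red cells. Its log2 fold change was then 0.37 (SE 0.15, adjusted p = 0.0297), or -0.39 relative to that shift. With Lars2 and Mir6236 also outside the scaling its log2 fold change was -0.20 and did not pass (adjusted p = 0.292).

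Nfkbia, which NF-κB induces soon after its activation, was not called in any of the 6 comparisons. It had 42.9, 46.3, 40.5 and 24.1 CPM in MG24, 33.4, 34.1, 35.4 and 26.2 in MR24, 35.5, 27.5, 38.7 and 21.6 in MG72 and 28.1, 30.9, 36.1 and 21.4 in MR72. All 4 groups overlapped, and the log2 fold change over both times was -0.17 (95% confidence interval -0.49 to 0.15, adjusted p = 0.479).

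Tnfaip3 ranged from 8.18 to 27.5 CPM in Kaede-green and from 13.8 to 25.2 CPM in Kaede-red libraries, with a log2 fold change of -0.15 (95% confidence interval -0.53 to 0.23). Its lowest value was in MG24 replicate 4, where Nfkb1 (6.54 CPM) and Nfkb2 (9.41 CPM) also had their lowest. Nfkbiz was the steadiest member, at 32.3 to 48.9 CPM in all 16 libraries, with a log2 fold change of 0.07 (95% confidence interval -0.18 to 0.32). Rel ranged from 8.92 to 15.5 CPM in Kaede-green and from 7.44 to 11.1 CPM in Kaede-red libraries (log2 fold change -0.31, 95% confidence interval -0.63 to 0.02, adjusted p = 0.179). Nfkb2 ranged from 9.41 to 19.0 and from 13.4 to 20.1 CPM (log2 fold change 0.12, 95% confidence interval -0.19 to 0.42).

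**Figure D3:**
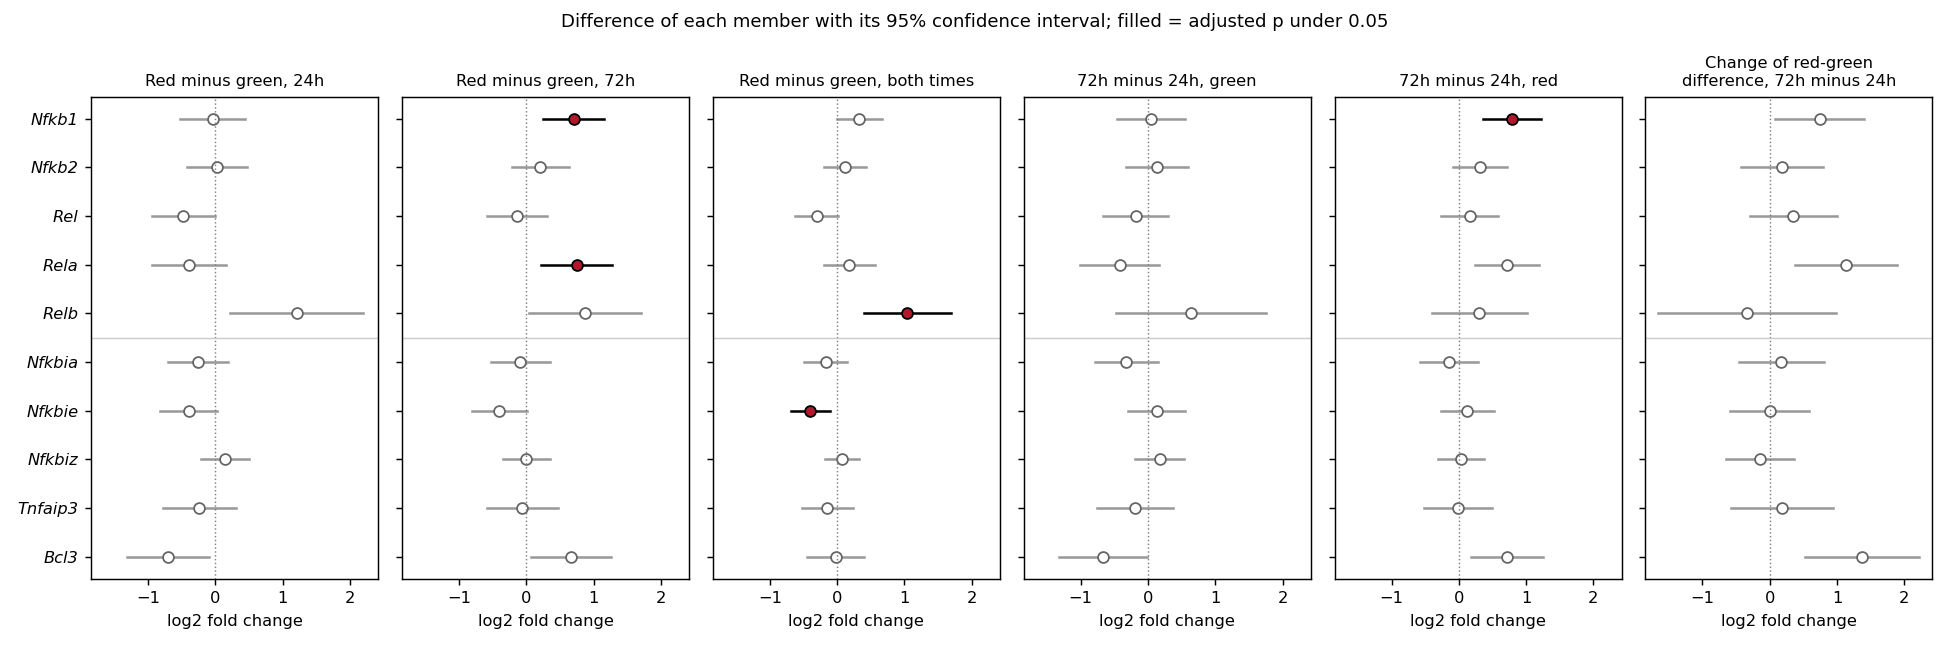
Log2 fold change of each member (point) with its 95% confidence interval (line) in the 6 comparisons; filled points have an adjusted p under 0.05 over all 9642 genes. Filled are Nfkb1 and Rela at 72h, Relb and Nfkbie over both times, and Nfkb1 from 24h to 72h in Kaede-red cells.

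Between the times, Nfkb1 rose in Kaede-red cells. From the values given above, all 4 MR72 libraries (18.9 to 23.3 CPM) lay above all 4 MR24 libraries (10.3 to 14.4 CPM), with a log2 fold change of 0.79 (SE 0.21, 95% confidence interval 0.36 to 1.22, adjusted p = 0.0175), or 1.73-fold. Nfkb1 was 1 of 10 members called, against 8.68% of all tested genes.

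Rela (log2 fold change 0.72, SE 0.23, adjusted p = 0.0503) and Bcl3 (0.71, SE 0.26, adjusted p = 0.0891) missed the threshold. Their MR72 values lay above all MR24 values, and so did those of Nfkb2 (0.31, adjusted p = 0.360). How common such separation was among all tested genes, here or between the colours at 72h, is not given. Fitted on the Kaede-red groups alone, Rela and Bcl3 passed as well (3 members called). More genes of any kind were called in that fit, 890 higher and 714 lower of 10080 tested, against 474 and 363 of 9642 in the fit of all groups. The Nfkb1 call was lost without MR24 replicate 3 or 4 or MR72 replicate 1 or 4 (adjusted p up to 0.0758, without MR24 replicate 4). It was also lost with the Rn45s share as a covariate (0.59, adjusted p = 0.214) and with scaling by counts outside Rn45s only (0.72, adjusted p = 0.0580). The MR72 libraries enter both this comparison and the one between colours at 72h.

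In Kaede-green cells no member was called between 24h and 72h. By edgeR 0 of 10 members and 0.0% of all tested genes passed, with 1 member (Bcl3, -0.66, 95% confidence interval -1.32 to -0.01) and 835 genes at an unadjusted p under 0.05. DESeq2 called 0 members and 14 genes. Whether the change with time differed between the colours is the same test as the change of the red-green difference, which no member passed by edgeR.

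Markers of macrophages and of other cells differed between the groups in which Nfkb1 and Rela differed. At 72h 6 of 10 macrophage and monocyte markers were called higher in Kaede-red cells and none lower, against 16.8% of all tested genes. The median log2 fold change of the 10 was 0.73. The 4 not called were Ly6c2 (0.45), Ccr2 (0.17), Fcgr1 (0.04) and Lyz2 (-0.68, adjusted p = 0.0937). From MG72 to MR72 the mean level of Csf1r went from 35.8 to 106 CPM, that of Cd68 from 35.6 to 100.5, that of Adgre1 from 17.5 to 53.1 and that of Itgam from 80.0 to 149 CPM. From 24h to 72h in Kaede-red cells 3 of the 10 rose, Csf1r and Itgam among them, against 8.68% of all tested genes called.

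The summed level of 7 neutrophil markers was 18.8 to 23.0 CPM in MR72 and 9.42 to 14.5 CPM in the other groups, with Retnlg at 0 in all 3 of those. Most of that sum was Csf3r, which monocytes also express, with a mean of 16.4 CPM in MR72 and 7.08 to 8.11 CPM elsewhere. S100a8 and S100a9, the abundant calprotectin genes of neutrophils, stood at means of 0.172 and 0.318 CPM in MR72 and 1.11 and 1.15 CPM in MG72. The 3 endothelial markers summed to 21.9 to 36.7 CPM in MR72, 17.8 to 22.5 in MR24 and 9.77 to 19.0 in Kaede-green libraries. Over both times Pecam1 and Kdr were higher (log2 fold change 1.02 and 1.06, adjusted p = 0.00308 and 1.77e-05) and Cdh5, the gene for VE-cadherin, was lower in Kaede-red cells (-1.42, adjusted p = 0.0377). The sum of the 4 fibroblast markers went the other way, with 10.7 to 18.0 CPM in MR72, 18.8 to 35.0 in MR24 and 38.7 to 49.9 in Kaede-green libraries. The collagen genes Col1a1, Col1a2 and Col3a1 were lower in Kaede-red cells over both times. Dcn, which was not tested, had group means of only 0.530 to 0.808 CPM and was not lower in Kaede-red cells.

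The 10 macrophage and monocyte markers summed to 1544 to 1876 CPM in MR72, 895 to 1430 in MR24 and 1193 to 2674 in Kaede-green libraries, none at 0 in any group. Lyz2 held much of that sum, with mean levels of 1219 CPM in MG24, 347 in MR24, 882 in MG72 and 552 in MR72. The 7 dendritic markers summed to 6.13 to 12.8 CPM over all libraries, the 8 T and NK markers to at most 5.73 and the 4 epithelial markers to at most 2.86 CPM, with all 4 epithelial markers at 0 in MG72. The 10 immediate early and stress genes, which tissue digestion can raise, summed to 664 to 1039 CPM in MG24 and 482 to 737 CPM in the other groups. The part of these cells and genes in the results was not tested.

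Ratios of counts within a library do not depend on how libraries are scaled. The log2 ratio of Nfkbia to Rela counts was 0.91 to 1.86 in MR72, 2.03 to 3.02 in MR24, 1.52 to 2.69 in MG72 and 1.78 to 2.57 in MG24. The MR72 values thus lay below all MR24 values and overlapped those of MG72. For Nfkbie to Rela, chosen after the values were seen, the ratio was 1.02 to 1.56 in MR72, 1.64 to 1.96 in MR24, 2.04 to 2.59 in MG72 and 1.46 to 2.39 in MG24.

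The log2 ratio of Nfkb2 to Nfkb1 counts had a mean of -0.14 ± 0.20 (SD, n = 4) in MR72 and of 0.31 ± 0.30 in MG24, 0.35 ± 0.27 in MR24 and 0.34 ± 0.26 in MG72. The MR72 values (-0.39 to 0.06) lay below all MR24 values (0.11 to 0.69) and overlapped those of MG24 and MG72. For Relb to Rela it was -2.67 ± 0.89 in MG24, -0.87 ± 0.46 in MR24, -1.32 ± 0.50 in MG72 and -1.24 ± 0.24 in MR72, so the MG24 libraries (-3.86 to -1.72) lay below all MR24 libraries (-1.26 to -0.27). The 2 counts behind the lowest of these values leave it uncertain. These ratios are descriptions of counts, without a test.

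**Figure D4:**
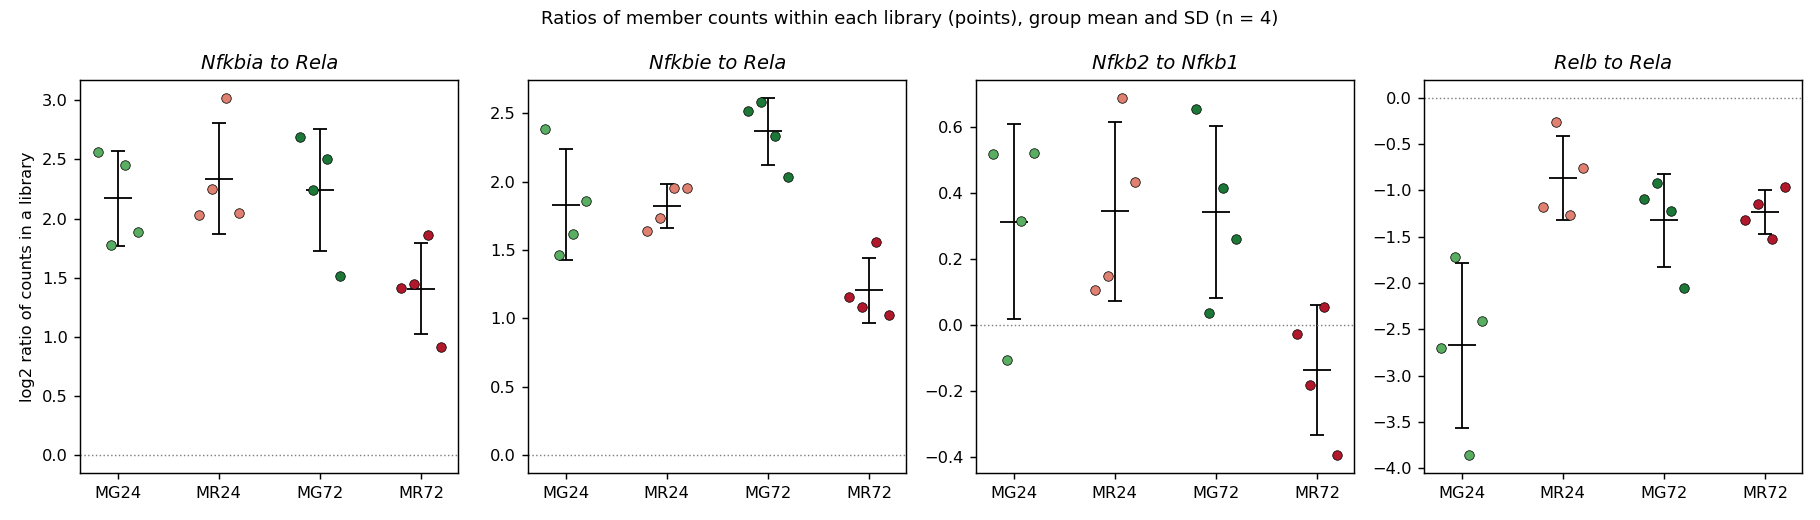
Log2 ratio of the counts of member pairs in each library (points), with group mean and SD (n = 4). The Nfkbia to Rela ratios of MR72, 0.91 to 1.86, lie below those of MR24, 2.03 to 3.02.

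For each member, the gene with the most similar pattern was the one of 1486 candidates with the smallest root mean square difference of mean-centred log2 CPM over the 16 libraries. It was Flna for Nfkb1 (0.18), Irgm1 for Rela (0.20), Parp14 for Rel (0.17), Atp5b for Nfkb2 (0.19) and Basp1 for Relb (0.43). It was Plaur, itself a known NF-κB target, for Nfkbie (0.17), Serp1 for Nfkbia (0.23), Dhx15 for Nfkbiz (0.13), Fcgr3 for Tnfaip3 (0.28) and Tifab for Bcl3 (0.27). The member's own spread on this scale was 0.14 for Nfkbiz, so Dhx15 lay hardly nearer to it than a constant level would, and 0.26 to 0.85 for the other members. All share the libraries, the depth and the scaling.

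Upstream of the members, 6 of 11 tested receptor genes (of 12 listed) rose from 24h to 72h in Kaede-red cells. The other 5 did not pass, and 8.68% of all tested genes were called in that comparison. The median log2 fold change was 0.68 against -0.01 for all tested genes. Leaving out single libraries gave 2 to 7 rises (2 without MR24 replicate 3 or 4 or MR72 replicate 1), and the Rn45s share as a covariate gave 1. Between the colours over both times 4 were higher in Kaede-red cells and 7 did not pass, against 20.3% of all tested genes called, and the median of 0.02 lay below the 0.06 of all tested genes. This count was 2 without MG72 replicate 3, 3 higher and 1 lower by DESeq2, and 0 with the Rn45s share as a covariate, and the Tnfrsf1b call among the 4 was lost in 10 of 16 fits without 1 library (adjusted p up to 0.117).

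Tlr7, which senses single-stranded RNA, had a median of 20.9 CPM in Kaede-red libraries (at most 29.3) and 9.83 in Kaede-green ones (at most 13.0), with a log2 fold change of 1.01 (SE 0.18, adjusted p = 6.78e-05). Tlr9, the sensor of unmethylated DNA, had a log2 fold change of 0.85 (SE 0.20, adjusted p = 0.00268) over both times and of 1.47 (SE 0.28, adjusted p = 0.00167) from 24h to 72h in Kaede-red cells. Tnfrsf1b, the gene for TNF receptor 2, rose in Kaede-red cells by 1.03 (SE 0.23, adjusted p = 0.00454), and its red-green difference changed with time by 1.38 (SE 0.33, adjusted p = 0.0465), a call lost in 12 of the 16 fits without 1 library (adjusted p up to 0.125, without MR24 replicate 4). Tlr4, the lipopolysaccharide receptor, was higher over both times (0.58, SE 0.17, adjusted p = 0.0134), but not without MG72 replicate 3 (adjusted p = 0.0512).

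Of the 28 adaptor and kinase genes, all tested, over both times 2 were higher in Kaede-red cells and 1 was lower (median log2 fold change 0.16), a smaller share than the 20.3% of all tested genes. The higher ones were Tab2, an adaptor of the kinase TAK1 (0.97, SE 0.18, adjusted p = 0.000129), and Ripk1, the kinase of the TNF receptor complex (0.72, SE 0.17, adjusted p = 0.00270). Bcl10, which links antigen and C-type lectin receptors to IκB kinase, was lower (-0.59, SE 0.17, adjusted p = 0.0113), and turned to 0.16 with scaling by counts outside Rn45s only. In Kaede-red cells from 24h to 72h 1 of the 28 rose (Tab2, 0.76) and 27 did not pass, against 8.68% of all tested genes. Tab2 did not pass either without MR24 replicate 3 or 4 or MR72 replicate 1 or 4 (adjusted p up to 0.122).

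Of 14 further inhibitors, 1 was higher and 2 were lower over both times, a share near the 20.3% of all tested genes. Tnip1, the gene for a partner of A20, was higher (0.70, SE 0.18, adjusted p = 0.00399) and also rose with time in Kaede-red cells (1.13, SE 0.22, adjusted p = 0.00193). Otud7b, a deubiquitinase, was lower (-1.14, SE 0.30, adjusted p = 0.00517), as was Nfkbid, the gene for the nuclear IκBNS (-0.55, SE 0.20, adjusted p = 0.0493). The Nfkbid call was lost in 12 of 16 fits without 1 library (adjusted p up to 0.130, without MG72 replicate 2), and its value turned to 0.22 with scaling by counts outside Rn45s only. With that scaling Otud7b was -0.40 and did not pass (adjusted p = 0.270).

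Known NF-κB target genes split evenly. Of 32 tested out of 38, 8 were higher and 8 were lower over both times in Kaede-red cells, against 20.3% of all tested genes called in either direction, with a median log2 fold change of 0.04. With scaling by counts outside Rn45s only the split was 19 higher and 3 lower, and with Lars2 and Mir6236 also outside it was 10 and 4. With the Rn45s share as a covariate 1 target, Bcl2l1, was called, and it was also the 1 gene of the 19 named from the lists over both times that was. At 24h 4 were higher and 7 lower (7.5% of all tested genes were called), and at 72h 6 and 5 (16.8%), with 3 higher at 72h without MG72 replicate 1 or 3. From 24h to 72h in Kaede-red cells 2 rose and 5 fell (8.68% of all tested genes were called), with 0 rises without MR24 replicate 3 or 4 or MR72 replicate 1 or 2, 1 without MR72 replicate 3 or 4, and 9 falls without MG24 replicate 4. The lists of receptors, adaptors, further inhibitors and targets were written from general knowledge with earlier results of these data known.

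Among the targets lower in Kaede-red cells, the cytokine gene Il6 had a median of 8.76 CPM in Kaede-green (5.20 to 15.5) and 0.546 in Kaede-red libraries (0.264 to 3.02). Clec4e, a receptor for mycobacterial glycolipid, was lower (-1.28, SE 0.17, adjusted p = 1.09e-06), Ptgs2, the inducible cyclooxygenase, too (-1.15, SE 0.14, adjusted p = 2.74e-07) and so was Il1b (-0.93, SE 0.13, adjusted p = 3.68e-06). Il6 itself had a log2 fold change of -3.33 (SE 0.34, adjusted p = 1.27e-08). With scaling by counts outside Rn45s only, Il1b was -0.17 and did not pass (adjusted p = 0.281). Il6, Clec4e and Ptgs2 were still called lower with that scaling (-2.56, -0.52 and -0.38).

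Among the higher ones, Bcl2l1, the gene for the survival protein BCL-XL, had a median of 18.7 CPM in Kaede-red (14.1 to 20.5) and 8.11 in Kaede-green libraries (5.61 to 12.7), with no overlap and a log2 fold change of 1.05 (SE 0.16, adjusted p = 9.43e-06). Icam1, an adhesion molecule, was higher by 0.84 (SE 0.18, adjusted p = 0.000874) and Cxcl3, a neutrophil chemokine of at most 4.26 CPM, by 1.35 (SE 0.45, adjusted p = 0.0301), a call lost without MG24 replicate 4, MR24 replicate 4, MG72 replicate 2 or MR72 replicate 3 (adjusted p up to 0.0745). Il12b was called too (adjusted p = 0.00244) at 0 to 0.819 CPM in Kaede-green and 0 to 1.94 in Kaede-red libraries, levels at which the fitted fold is not interpretable. Plaur, the likest gene to Nfkbie, was also lower (-0.42), a call lost in 8 of 16 fits without 1 library (adjusted p up to 0.0779), and turned to 0.34 with scaling by counts outside Rn45s only.

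**Figure D5:**
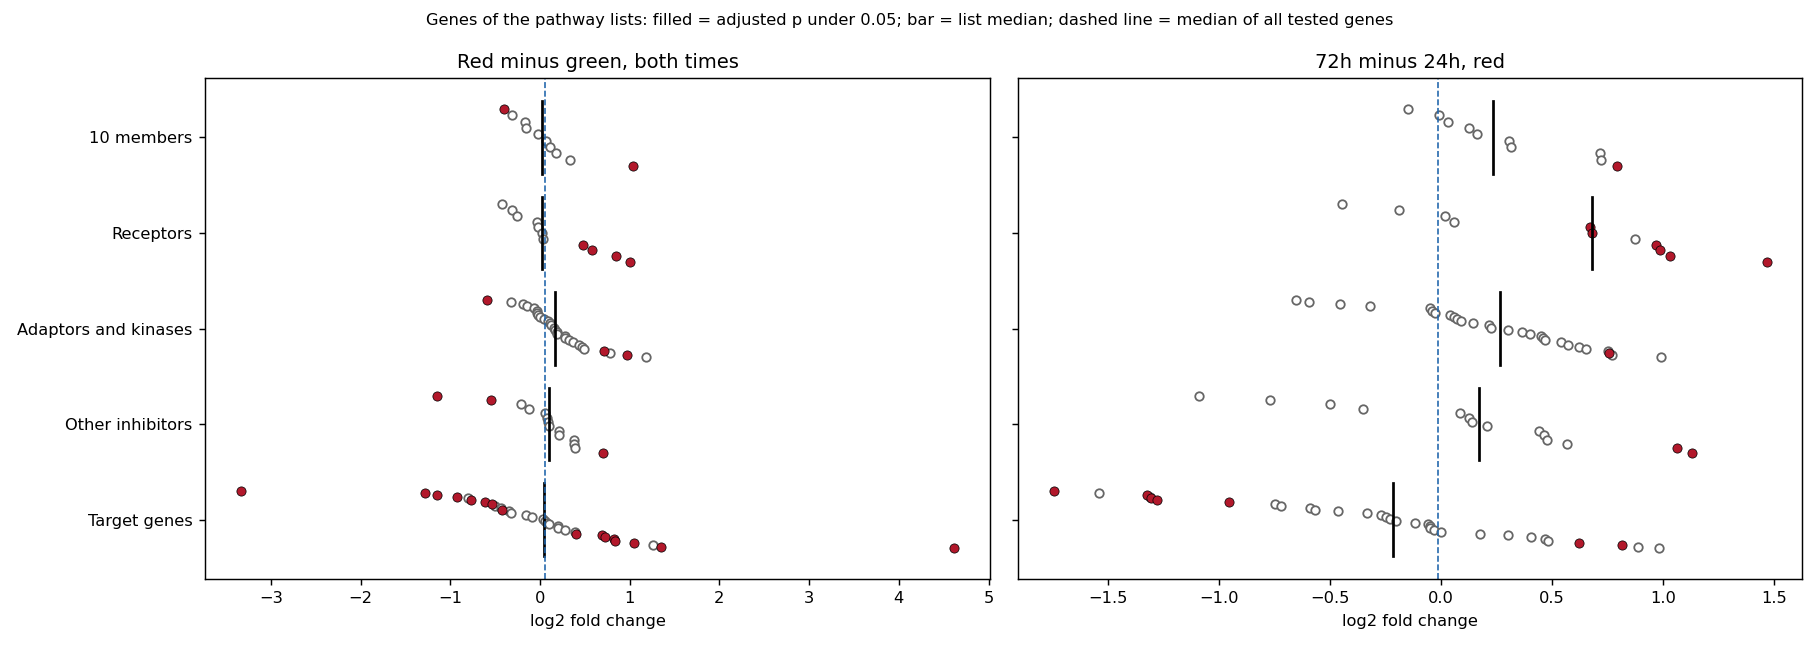
Log2 fold change of every tested gene (points, filled with an adjusted p under 0.05) in the members and the 4 pathway lists, red minus green over both times (left) and 72h minus 24h in Kaede-red cells (right); bars are list medians and the dashed line is the median of all tested genes. The receptor median on the right is 0.68, and the target genes on the left hold 8 higher and 8 lower calls.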

How the data were processed

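Bulk RNA-seq of 16 sorted CD11b+ cell libraries was analysed. Per the labels and the study's methods, total RNA libraries (SMARTer stranded pico kit) were trimmed with Trim Galore, checked with FastQC, aligned to mm10 with HISAT2 and counted per gene with featureCounts; versions and the strand setting are not given in the sources used here. The deposited values are raw counts per gene, made by the authors, and were used as deposited; a combined table of the same libraries was not used.

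Genes were filtered with filterByExpr (9642 of 24421 kept), scaled by TMM and fitted with edgeR 4.0.16 in R 4.3.3 (quasi-likelihood, 1 mean per group, 12 residual degrees of freedom), with Benjamini-Hochberg adjustment over all kept genes. Log2 CPM used a prior count of 2, and figures matplotlib. Standard errors were the log2 fold change over the root of F. Scripts were tested on simulated data. The study describes the bulk samples as tumours of separate mice; p-values measure the spread between these libraries. No 2 libraries of a group agreed within sampling noise (24 pairs). Replicate numbers do not state a shared animal.

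Alternatives were DESeq2 1.42.0, other scalings and filters, only the groups compared, a replicate block, Rn45s left out or its share as a covariate, thinned Kaede-red libraries, and leaving out each library. Scaling by counts outside Rn45s, Lars2 and Mir6236 was added after the data were seen.

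The members, gene lists and tests were chosen with earlier results of these data known. Genes were named by rule: the 10 members in every comparison; from each pathway or target list, up to 4 rises and 4 falls of largest size among calls over both times; and for each member the most similar gene with a log2 CPM of at least 4. Coordinates and exon lengths are from GENCODE and promoters from RefSeq (GRCm38.p6). Cd3e, Epcam, Adgre1, Csf1r, Itgam, Plaur and the other marker genes, and values in other comparisons, were named as markers or after their values were seen.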

Additional observations from a re-analysis of the deposited data

Results flagged for a closer look

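Of 40 sets of 4 libraries (10 members in 4 groups), 4 held a library whose gap to its nearest neighbour exceeded Dixon's 95% critical share of the range for 4 values, where chance gives about 1 in 20. Rela was 13.5 CPM in MG24 replicate 2 and 6.54 to 7.39 CPM in the other MG24 libraries. Tnfaip3 was 8.18 CPM in MG24 replicate 4 and 24.6 to 27.5 CPM in the others. Nfkb1 was 14.3 CPM in MG72 replicate 4 and 12.1 to 12.4 CPM in the others. Nfkbie was 29.3 CPM in MR72 replicate 3 and 23.1 to 24.1 CPM in the others. No member passed edgeR's test of whether the colour difference changed between 24h and 72h.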

How the results depend on the processing

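Of the 5 member calls, none held in every alternative. In the comparisons at 24h, in Kaede-green cells and of whether the colour difference changed, the member counts stayed at 0 in every alternative except where a value is given below. Depth limits what low genes can show in Kaede-green libraries, with 2 to 12 Relb counts each. The causes of the shifts below were not tested.

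With scaling by counts outside Rn45s only, the median of all genes moved by 0.77 (both times), 0.89 (24h) and 0.64 (72h). Counts called were then 10 members and 6119 genes over both times, 7 and 4695 at 24h, 6 and 3578 at 72h, and 0 and 550 for Kaede-red cells with time, with 112 genes for the colour difference over time. Signs turned for 22 of 60 member values, 21 of which kept their sign relative to that shift: over both times Rel 0.45, Nfkbia 0.59, Nfkbie 0.37, Tnfaip3 0.63 and Bcl3 0.75; at 24h Nfkb1 0.88, Rel 0.39, Rela 0.51, Nfkbia 0.66, Nfkbie 0.52, Tnfaip3 0.70 and Bcl3 0.18; at 72h Rel 0.52, Nfkbia 0.52, Nfkbie 0.22, Nfkbiz 0.64 and Tnfaip3 0.57; with time Tnfaip3 in Kaede-green 0.014 and Nfkbiz in Kaede-red cells -0.049; and in the change of that difference Nfkb2 -0.10, Nfkbia -0.14 and Tnfaip3 -0.13. Of the genes named from the lists, Bcl10 (0.16), Nfkbid (0.22) and Plaur (0.34) turned over both times, and Il1b (-0.17) and Otud7b (-0.40) kept their sign but did not pass. Scaling without Lars2 and Mir6236 as well moved the median by 0.20 over both times and turned 10 values, all with their former sign relative to it: Nfkbia 0.023, Tnfaip3 0.054 and Bcl3 0.18 over both times; Nfkb1 0.20 and Tnfaip3 0.0093 at 24h; Rel 0.031, Nfkbia 0.065, Nfkbiz 0.16 and Tnfaip3 0.099 at 72h; and Nfkbiz -0.026 in Kaede-red cells. It called 2 members over both times, with Nfkb1 (0.54, adjusted p = 0.0103) gained and Nfkbie (-0.20, adjusted p = 0.292) lost, and 3 at 72h, with Bcl3 (0.84, adjusted p = 0.0373) gained. Higher and lower calls among all genes were 969 and 990 over both times in the reported fit, 5888 and 231 with the first scaling and 1891 and 631 with the second; 310 and 413, 4618 and 77, and 714 and 243 at 24h; 777 and 845, 3271 and 307, and 1274 and 643 at 72h; 474 and 363, 198 and 352, and 382 and 432 in Kaede-red cells; and 41 and 32, 8 and 104, and 31 and 40 for the change.

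With the Rn45s share as a covariate 0 members were called over both times, at 72h and in Kaede-red cells, and 156, 101 and 110 genes, with 206 at 24h and 34 for the change. Signs turned over both times for Nfkb1 (-0.063), Rela (-0.28), Tlr9 (-0.017) and Tnfrsf1b (-0.18), at 72h for Nfkbia (0.091), Nfkbiz (0.11) and Tnfaip3 (0.034), and with time for Nfkb1 in Kaede-green (-0.041) and Relb (-0.016) and Tnfaip3 (0.026) in Kaede-red cells. With no filter, 1 member was called over both times, 37 genes in Kaede-green cells and 216 for the change; Bcl3 over both times (0.099), Nfkb1 at 24h (0.047), Rel (0.018), Nfkbia (0.055), Nfkbiz (0.15) and Tnfaip3 (0.084) at 72h, Tnfaip3 in Kaede-red cells (0.061) and the Nfkbie change (0.050) turned. With thinned Kaede-red libraries 1 member was called over both times and 1 at 72h, and 48 genes for the change; Nfkb2 turned over both times (-0.053) and at 24h (-0.23), and Nfkbiz at 72h (0.00075) and in Kaede-red cells (-0.046). With at least 10 counts in every library, 2 members were called in Kaede-red cells and 156 genes for the change, and Nfkb1 at 24h (0.080) and Nfkbiz at 72h (0.016) and in Kaede-red cells (-0.034) turned. On only the groups compared, 3 members and 1604 genes were called in Kaede-red cells, and Nfkb2 at 24h was -0.0044. Without Rn45s, Nfkb2 at 24h was -0.00092 and Nfkbiz in Kaede-red cells -0.0028. RLE factors called 1 member at 72h and gave Nfkbiz -0.016 in Kaede-red cells. DESeq2 called 14 genes in Kaede-green cells, 2 members in Kaede-red cells (Nfkbiz -0.018), and 2 members and 344 genes for the change.

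Whether replicate numbers mark pairs was not settled. Deviations from group means correlated at -0.041 to 0.15 between libraries with the same number, some of them of different times, and at -0.13 to 0.15 otherwise. For Kaede-green and Kaede-red libraries of the same number and time, the correlations were 0.049 to 0.15 at 24h and -0.018 to 0.029 at 72h. So few pairs cannot decide the question. With a replicate block 1 member, Nfkb1, was called at 72h, by either block, and the Rela call was lost. A block within time called 165 genes for the change and gave 0.0021 for Bcl3 over both times and 0.0052 for Nfkbiz at 72h.

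Leaving out 1 library gave 0 to 2 members called over both times (0 without MR24 replicate 2), 0 to 1 at 24h (Relb, without MG24 replicate 2), 0 to 3 at 72h (0 without MG72 replicate 1 or 2, among others; 3 without MG72 replicate 4, with Bcl3) and 0 to 2 in Kaede-red cells (0 without MR24 replicate 3 or 4 or MR72 replicate 1 or 4). All genes called ran from 0 to 2 in Kaede-green cells, 280 to 1108 in Kaede-red cells (lowest without MR72 replicate 1) and 2 to 155 for the change (lowest without MR24 replicate 3, highest without MR24 replicate 1). Uncalled values that crossed 0 ran from -0.15 to 0.11 for Bcl3 over both times; from -0.26 to 0.17 for Nfkb1 and -0.15 to 0.11 for Nfkb2 at 24h; from -0.21 to 0.038 for Nfkbia, -0.065 to 0.034 for Nfkbiz and -0.18 to 0.058 for Tnfaip3 at 72h; from -0.17 to 0.25 for Nfkb1, -0.045 to 0.23 for Nfkb2 and -0.014 to 0.24 for Nfkbie in Kaede-green and -0.13 to 0.18 for Tnfaip3 in Kaede-red cells; and from -1.25 to 0.085 for Relb and -0.13 to 0.12 for Nfkbie in the change.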
